A study of Mus musculus with 4 samples.

Results

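The untreated MC38 library was described on its own: 1 of the 4 RNA-seq libraries of the series, chosen by its label as the culture that received no IFN-γ and was kept under normoxic conditions. MC38 is a mouse colon carcinoma line, labelled here as wild-type colon cancer cells. The other 3 libraries, from untreated cells under hypoxia and from cells given IFN-γ under normoxia or hypoxia, were not compared with it. Nothing further limits the group in the labels, except that the line is 1 cell line and the culture was sequenced as 1 library with no replicate.

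The question was descriptive: which lineage, receptor, ligand and metabolic genes the untreated line transcribed, and which of them were at or near 0. A transcript profile of a cultured tumor line reflects the tissue it came from, the programs kept or lost in culture and the demands of growth. Colon epithelium is normally marked by E-cadherin junctions, simple keratins and the CDX and HNF4 transcription factors, whereas mesenchymal cells carry vimentin, fibronectin, fibrillar collagens and factors of the SNAI, TWIST and ZEB families. Receptors set which outside signals a cell can read, secreted ligands set which signals it can send to its neighbors, and the choice between paralogous enzymes marks metabolic states.

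Reads counted on genes summed to 34302971 in this library, and the 4 libraries ran from 34302971 to 34537939. A gene was called expressed at 1 CPM or above, which was 35 counts here, CPM being counts scaled to a library total of 1000000. A gene at or under 3 counts (0.0875 CPM) could not be told from absent and is called at or under the floor, and genes between these limits are called low. Levels of different genes are compared as TPM, counts per length of the merged exons scaled to the same total. Intervals are exact Poisson 95% intervals that cover counting error alone, since the library had no replicate. Low counts were more often even than odd, in 2747 (64.8%) of the 4238 genes with 1 to 20 counts, so the intervals may be too narrow. The reads were paired, and whether both mates of a pair were counted was not tested.

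Of 27179 genes in the table, 11824 (43.5%) were expressed, 2971 were low and 12384 (45.6%) were at or under the floor, 10524 of them at 0. Among protein-coding genes 11020 of 20979 (52.5%) were expressed. The 10 most counted genes held 5.57% of all counts, and 82 genes reached 1000 CPM. By counts the leading genes were COX1, a mitochondrially encoded cytochrome c oxidase subunit (337315 counts), the chaperone Hsp90ab1 (295309 counts), the elongation factor Eef1a1 (261623 counts), the ribosomal protein Rplp0 (226800 counts) and the glycolytic enzyme Pkm (174469 counts). Vim, the intermediate filament of mesenchymal cells, was the 19th most counted gene with 80440 counts. On the TPM scale the galectin Lgals1 ranked 11th at 5265 TPM, behind ribosomal proteins, mitochondrial genes, Eef1a1, Hsp90ab1 and Ptma.

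Defining markers of the labelled tissue were read in this library. Of 12 markers of colon epithelium 1 was expressed, 5 were low and 6 were at or under the floor, with 151 counts in all. Cdh1 (E-cadherin, chr8:106603350-106670247, GRCm38.p6) had 0 counts, Krt18 had 0, Cdx1 had 0 and Cdx2 had 0. By the floor of 3 counts a count of 0 allows a level of up to 0.0875 CPM, and the Poisson interval of a count of 0 reaches 0.108 CPM. Epcam, the epithelial adhesion molecule at chr17:87635979-87651127, had 2 counts (0.0583 CPM, interval 0.00706 to 0.211), and Krt19 also had 2 counts. Hnf4a had 4 counts, Vil1 (villin of the brush border) 7, Krt20 12, Cdh17 15 and Lgals4 19 counts. Krt8, the expressed marker, had 90 counts or 2.62 CPM (interval 2.11 to 3.22), and 36.0% of its 31-base words also occur in other annotated genes, so that its reads are uncertain. For Cdh1, Epcam, Krt19, Cdx1, Cdx2, Hnf4a and Vil1 that share was under 1%, and for Krt18 it was 11.4%. Apart from Krt8, these markers were thus low or at or under the floor, and the cells are called by their line name throughout. The markers were chosen with earlier results known, so these levels are a description and no test of the label.

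All 9 mesenchymal markers were expressed, with 100852 counts in all and levels between 0.790 and 1585 TPM. The markers of all cell types were chosen with earlier results of these data known, so their counts are a description. The epithelial marker Krt8, at 4.30 TPM, lay above the mesenchymal markers Zeb1, Pdgfrb, Col1a1 and Col1a2. Vim (chr2:13574311-13582826) stood at 1585 TPM and Fn1, the fibronectin gene, at 137 TPM. The transcription factors Twist1 (62.0 TPM), Zeb2 (4.50 TPM) and Zeb1 (2.35 TPM) were lower, as was the N-cadherin gene Cdh2 (8.12 TPM). Col1a1 with 66 counts (0.940 TPM), Col1a2 with 105 counts (0.790 TPM) and Pdgfrb with 93 counts (1.59 TPM) lay near the limit for expression. Markers of other cells gave few counts: 23 counts over 6 leukocyte markers, 50 over 3 endothelial, 62 over 3 muscle and 46 over 3 neural markers. The count of 0 for Itgam is uncertain, since 68.3% of its words occur in other genes. The endothelial, muscle and neural sums came almost wholly from Cdh5 (50 counts, 1.11 TPM), Des (62 counts, 1.54 TPM) and Syp (45 counts, 0.807 TPM), each just over the limit for expression at levels like those of Col1a1 and Col1a2, while Pecam1, Kdr, Myod1, Myog and Snap25 had 0 counts.

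**Figure D1:**
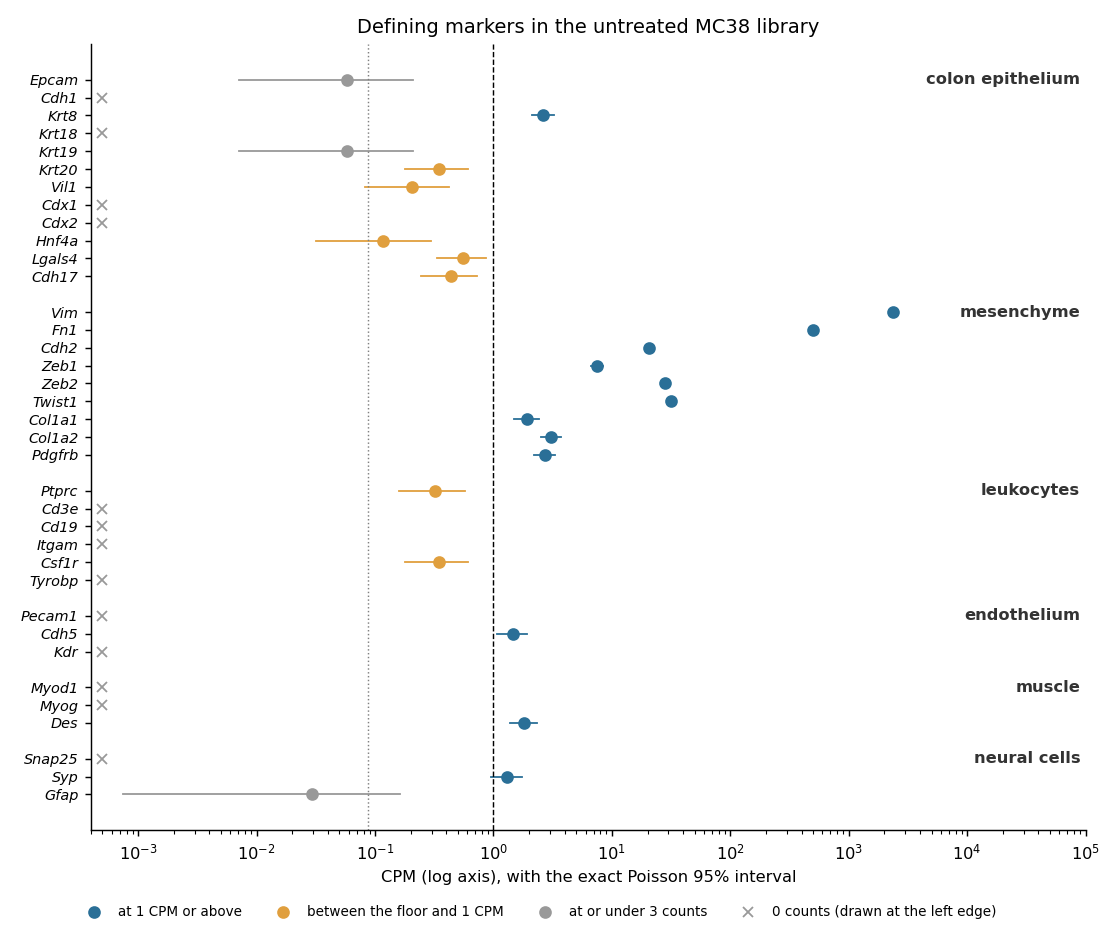
CPM on a log axis of 36 defining markers in the untreated MC38 library, grouped by cell type, with the Poisson 95% interval as a line and crosses at the left edge for 0 counts. The dashed line marks 1 CPM and the dotted line 3 counts. The 9 mesenchymal markers all lie right of 1 CPM, while 1 of the 12 colon epithelial markers does. The markers were chosen with earlier results of these data known.

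The promoters of 2 silent epithelial genes and 2 expressed mesenchymal genes are shown because these genes carry that contrast. Each window holds 250 bases before the annotated start and 50 after it, written 5′ to 3′ on the gene's strand, from RefSeq on GRCm38.p6. Capitals mark the E-box CACCTG or its reverse complement CAGGTG, the letters that repressors of the SNAI and ZEB families are known to bind.
Epcam (chr17:87635729-87636028, plus strand): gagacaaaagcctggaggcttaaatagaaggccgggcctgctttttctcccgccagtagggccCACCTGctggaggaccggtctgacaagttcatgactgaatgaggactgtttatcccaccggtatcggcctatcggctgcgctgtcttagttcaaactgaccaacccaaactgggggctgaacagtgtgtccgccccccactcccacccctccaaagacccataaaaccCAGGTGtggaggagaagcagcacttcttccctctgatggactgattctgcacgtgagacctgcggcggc
Krt18 (chr15:102027966-102028265, plus strand): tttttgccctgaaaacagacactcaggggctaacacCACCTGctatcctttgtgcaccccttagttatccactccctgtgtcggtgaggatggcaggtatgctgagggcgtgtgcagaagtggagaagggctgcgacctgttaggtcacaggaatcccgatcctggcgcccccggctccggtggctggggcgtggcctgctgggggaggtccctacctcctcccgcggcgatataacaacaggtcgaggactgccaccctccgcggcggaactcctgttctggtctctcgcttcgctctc
Vim (chr2:13574061-13574360, plus strand): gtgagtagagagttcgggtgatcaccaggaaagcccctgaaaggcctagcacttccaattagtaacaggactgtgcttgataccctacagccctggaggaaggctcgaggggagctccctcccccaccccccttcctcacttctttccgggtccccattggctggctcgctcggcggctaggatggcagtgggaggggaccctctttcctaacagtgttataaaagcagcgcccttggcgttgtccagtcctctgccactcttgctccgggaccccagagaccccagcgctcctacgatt
Twist1 (chr12:33957421-33957720, plus strand): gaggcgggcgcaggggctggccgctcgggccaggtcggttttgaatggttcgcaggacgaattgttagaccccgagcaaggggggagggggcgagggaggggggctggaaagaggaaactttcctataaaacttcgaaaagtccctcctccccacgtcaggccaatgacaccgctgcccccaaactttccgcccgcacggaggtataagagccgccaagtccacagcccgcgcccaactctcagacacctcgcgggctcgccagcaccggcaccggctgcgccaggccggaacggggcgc
The Epcam window held 2 such E-boxes and the Krt18 window 1, and those of Vim and Twist1 held 0. Over the listed windows, 1 per gene, of 18454 genes in the table, 19.5% held at least 1. The share was 12 of 22 windows (54.5%) for the epithelial junction and surface genes and 1 of 22 (4.55%) for mesenchymal structure and matrix genes. It was 33.3% for intestinal and epithelial transcription factors, 25.6% for colonocyte and secretory markers and 11.8% for mesenchymal transcription factors. Across these lists the letters did not follow the level in 1 direction. Among junction and surface genes the windows with an E-box were 2 of 8 for expressed members and 3 of 3 at or under the floor. The rest of the 12 belonged to low members. Among the intestinal and epithelial transcription factors they were 3 of 7 for expressed members and 2 of 9 at or under the floor. These classes are small, and a relation to level was not tested. Over all genes the shares were 15.9% for expressed genes, 23.9% for low genes and 22.9% at or under the floor. These are matches of letters, not measured binding. The windows also differed in CpG content, the observed over expected ratio being 0.454 for Epcam, 0.603 for Krt18, 0.421 for Vim and 0.827 for Twist1. Across the table the median ratio was 0.784 in windows of expressed genes and 0.227 in those of genes at or under the floor, so the Vim window lay below the expressed median although Vim was among the most abundant transcripts.

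Across 11 lists of epithelial genes, 62 of 263 members (23.6%) were expressed, against 43.5% of all genes, and 140 were at or under the floor. Their median was 0.0774 TPM, against 0.570 TPM over all genes. Keratins, which build the epithelial cytoskeleton, were nearly absent: 3 of 54 were expressed, Krt80 (13.6 TPM), Krt6a (4.64 TPM) and Krt8 (4.30 TPM), and 44 were at or under the floor. For Krt6a 62.0% of the words are shared with other genes. Of 23 claudins, the strand-forming proteins of tight junctions, 5 were expressed, led by Cldn12 (116 TPM), Cldn9 (54.0 TPM) and Cldn6 (9.45 TPM), whereas Cldn2, Cldn3, Cldn4 and Cldn7 had 0 counts. Muc1 (64 counts) was the expressed member among 12 mucins. Colonocyte markers had 2 expressed members of 23, Emp1 (171 TPM) and the aminopeptidase Anpep (4.20 TPM), and the colonic transporters and enzymes Slc26a3, Car1 and Car4 had 0 counts. Among 26 markers of goblet, Paneth, enteroendocrine and tuft cells 3 were expressed, all under 2 TPM: Clca1, Dclk1 and Fcgbp. Tff3, Agr2, Zg16 and Pou2f3 had 0 counts.

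Members of the junction and surface list differed widely in level. Ctnnb1 (β-catenin) stood at 285 TPM, the linker Ezr at 166 TPM, Ctnna1 (α-catenin) at 132 TPM and the scaffold Tjp1 at 77.0 TPM. Dsg2 and Dsc2, the desmosomal cadherins, and the protease inhibitor Spint2 had 0 counts, and the desmosomal plakin Dsp had 26 counts (0.252 TPM). Of 23 cadherins, 5 were expressed, in the order Cdh24 (24.9 TPM), Cdh26 (16.8 TPM), Cdh2 (8.12 TPM), Cdh13 (3.32 TPM) and Cdh5 (1.11 TPM).

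The intestinal transcription factors split. Of 26, 9 were expressed, among them Klf4 (39.9 TPM), the Notch target Hes1 (28.6 TPM), Sox9 (20.9 TPM), Elf3 (13.3 TPM) and Klf5 (10.4 TPM). The expressed members also included Vdr, Foxa1 and Tcf7l2. Hnf4g, Gata4, Gata6, Isx, Atoh1 and Ascl2 had 0 counts, as did Cdx1 and Cdx2. Of 11 regulators of the epithelial program 5 were expressed, among them Ovol2 at 23.9 TPM. The splicing regulators of epithelial isoforms, Esrp1 (8 counts) and Esrp2 (7 counts), were low. Grhl2, which maintains epithelial junction genes, had 57 counts (0.619 TPM).

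Crypt stem cell markers gave 9 expressed of 22. The hyaluronan receptor Cd44 stood at 173 TPM, Bmi1 at 74.3 TPM and Lrig1 at 39.3 TPM, although 28.2% of the Bmi1 words are shared. Lgr5, Olfm4, Ascl2 and Prom1 had 0 counts, and the WNT target Axin2 had 18 counts (0.306 TPM). Markers of fetal or regenerating gut gave 9 of 17. Spp1 (osteopontin) stood at 1621 TPM, rank 65 of all genes with a length, followed by Anxa1 (267 TPM), Anxa3 (100.1 TPM), Ccn1 (91.9 TPM) and Clu (54.3 TPM). Ly6a, another marker of that state, had 44 counts, and Ccn2 had 0.

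Across the 4 mesenchymal lists 71 of 121 members (58.7%) were expressed, with a median of 1.84 TPM. The share was 43.5% over all genes, and 11020 of the 20979 protein-coding genes were expressed, which is close to the mesenchymal share. Of 30 transcription factors 23 were expressed. Twist2 led at 168 TPM and the AP-1 subunit Fosl1 followed at 69.1 TPM, but 46.0% and 54.5% of their words are shared with other genes. The next were Twist1, Snai1 (49.4 TPM), the hedgehog effector Gli1 (31.4 TPM), the gut mesenchyme factor Foxf2 (26.3 TPM), Osr1 (21.9 TPM), Runx2 (21.3 TPM) and Hmga2 (21.3 TPM). Snai3, Tcf21, Meox2, Wt1 and Pax7 had 0 counts. Of the 35 structural and matrix genes 26 were expressed, led by Lgals1, the calcium-binding S100a6 (2679.9 TPM), Vim and S100a4 (1430.4 TPM, 49.2% of words shared).

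The type IV chains Col4a1 and Col4a2 were the most abundant collagen transcripts. Of 44 collagen genes 21 were expressed, and the order was Col4a1 (136 TPM), Col4a2 (93.2 TPM), Col5a1 (81.4 TPM), Col16a1 (59.3 TPM), Col7a1 (53.3 TPM), Col6a3 (28.5 TPM) and Col3a1 (27.2 TPM). The other type V chains were lower, Col5a3 at 9.50 TPM and Col5a2 with 12 counts (0.117 TPM). Type I collagen, the main fibrillar collagen of fibroblasts, was near 1 TPM for both chains. The fibroblast matrix genes Postn, Lum and Mmp2 had 2 counts each, and the cross-linking enzyme Lox and Fbln1 had 0. Fibroblast, pericyte and smooth muscle markers gave 8 expressed of 20. Cd34, a sialomucin of stem and stromal cells, stood at 163 TPM and Pdgfra had 1177 counts. Thy1, Rgs5, Dpt and Pi16 had 0 counts, Fap had 14 counts and Acta2 had 7.

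**Figure D2:**
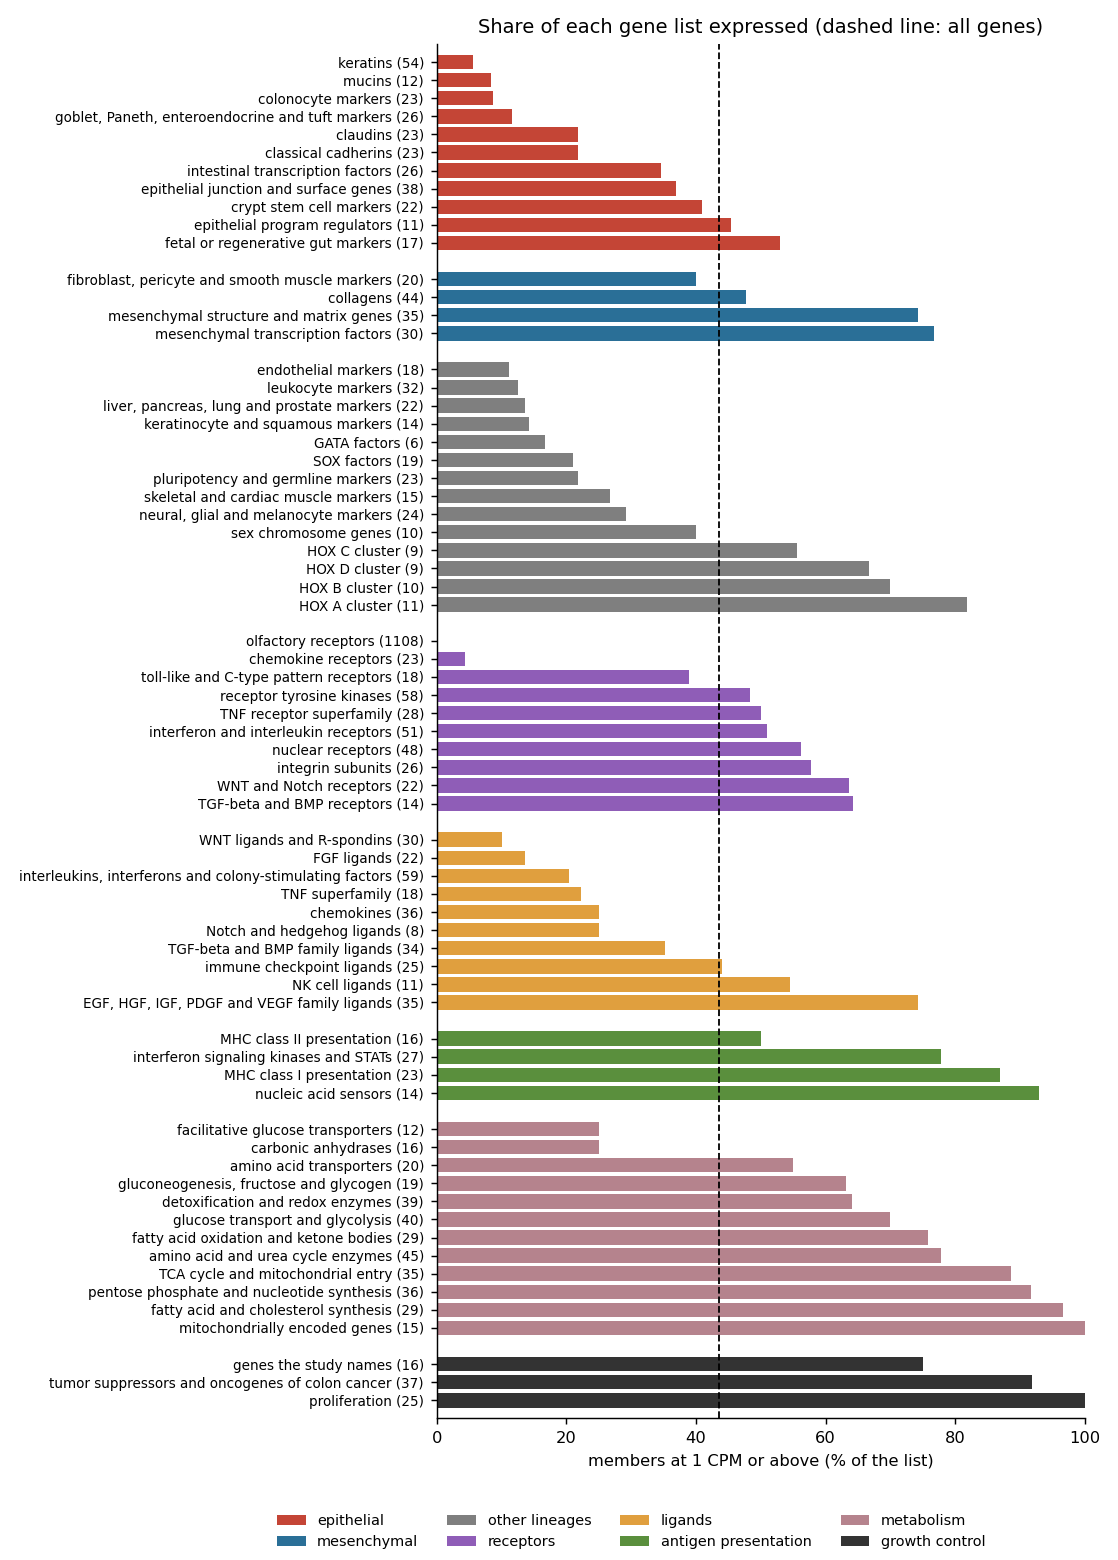
Percentage of the members of each gene list at 1 CPM or above in the untreated MC38 library, with the number of members in parentheses and bars colored by role. The dashed line is the 43.5% of all genes. Keratins (5.56%), colonocyte markers (8.70%) and chemokine receptors (4.35%) lie far left of it, and mesenchymal transcription factors (76.7%), fatty acid and cholesterol synthesis (96.6%) and proliferation (100%) far right.

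Across the lists of other lineages, 62 of 217 members (28.6%) were expressed, against 43.5% of all genes. Of these members 27 were HOX genes, and 40 were at 5 CPM or above. Of 32 leukocyte markers 4 were expressed, Cd14 (29.2 TPM), the lysosomal Cd68 (15.5 TPM), Lyz2 and Was. The pan-leukocyte phosphatase Ptprc had 11 counts, and Spi1, Itgax, Adgre1, Cd8a and Ms4a1 had 0. Several genes usually tied to other tissues were present while other markers of those tissues were at 0. Afp, the fetal serum protein of the liver, had 3710 counts (103 TPM), while Alb and Ttr had 0 and Apoa2 stood at 21.2 TPM. Sox2 had 1514 counts (68.8 TPM), while the pluripotency factors Pou5f1, Nanog and Zfp42 had 0 and Dppa4 (48.8 TPM) and Dppa2 (14.4 TPM) were expressed with 40.1% and 33.8% of words shared. The cardiac factor Nkx2-5 had 468 counts (25.4 TPM), with Actc1 and Myod1 at 0 and Tnnt2 at 2.93 TPM. The neural filament Nes (84.7 TPM) and the tubulin Tubb3 (134 TPM) were expressed, with Sox10, Pax6, Dcx and Nefl at 0. The Y-linked genes Ddx3y, Kdm5d, Eif2s3y and Uty had 0 counts, and Xist, the RNA of the inactive X chromosome, had 6.

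HOX genes, which record position along the body axis in 4 clusters, were widely transcribed. Of 39, 27 (69.2%) were expressed, against 43.5% of all genes, 5 were low and 7 were at or under the floor. The A cluster had 9 of 11 expressed, the B cluster 7 of 10, the C cluster 5 of 9 and the D cluster 6 of 9. The most abundant were Hoxd13 (39.9 TPM), Hoxa10 (35.2 TPM), Hoxd9 (32.9 TPM), Hoxa7 (32.3 TPM), Hoxc10 (29.8 TPM) and Hoxb6 (28.9 TPM). All 3 members of paralog group 10 were expressed, and their summed level, 90.3 TPM, was the highest of the 13 groups, followed by groups 9 (59.0 TPM), 6 (57.6 TPM) and 13 (49.5 TPM). In the D cluster Hoxd11 and Hoxd12 had 0 counts between Hoxd10 (490 counts) and Hoxd13 (1059 counts). Hoxc12, Hoxc13, Hoxb1, Hoxb2 and Hoxd1 also had 0 counts. Hoxb13, a marker of the hindgut, had 198 counts (8.39 TPM).

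**Figure D3:**
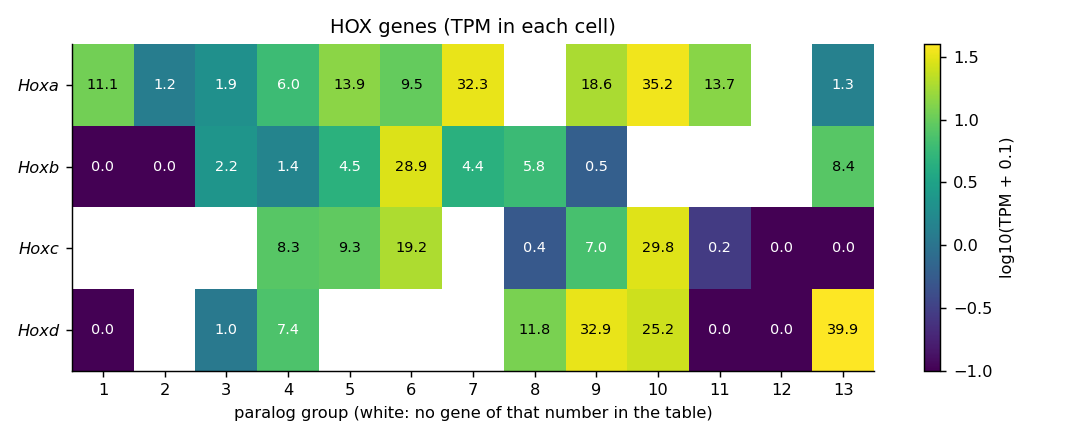
TPM of the 39 HOX genes of the table in the untreated MC38 library, by cluster (rows) and paralog group (columns), colored by log10(TPM + 0.1), with white where no gene has that number. Groups 4 to 10 are expressed in most clusters, and Hoxd13 (39.9 TPM) stands beside Hoxd11 and Hoxd12 at 0.

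Receptor lists held 141 expressed members of 1396 (10.1%), against 43.5% of all genes. The 1396 include 1108 olfactory receptors, of which 0 reached 1 CPM and 6 were low. All 141 expressed members were thus in the other receptor lists, and the 10.1% does not describe those lists. Among 58 receptor tyrosine kinases 28 were expressed. Axl, a TAM receptor, was the most abundant at 358 TPM (19287 counts), followed by the collagen receptor Ddr2 (90.2 TPM), Epha2 (85.3 TPM), Ryk (57.2 TPM), Ephb4 (52.8 TPM) and Fgfr1 (52.1 TPM). Erbb2 stood at 35.8 TPM and Met at 15.3 TPM. Egfr, the receptor of EGF, was at 1.02 TPM with 123 counts (3.59 CPM, interval 2.98 to 4.28). Kit, Kdr, Fgfr4, Ntrk2, Ror2 and Mst1r had 0 counts.

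Cytokine receptors gave 26 expressed of 51, against 43.5% of all genes and 11020 of 20979 protein-coding genes. Il1rl1, the receptor of IL-33, led at 136 TPM with 10044 counts. The IFN-γ receptor chains Ifngr1 (40.3 TPM) and Ifngr2 (13.4 TPM) were both expressed before any cytokine was given, as were the type I receptor chains Ifnar2 (17.8 TPM) and Ifnar1 (17.2 TPM). The shared signal chain Il6st was at 10.8 TPM and Il6ra at 4.52 TPM, and Il7r, Il2ra, Csf2ra, Csf3r and Ifnlr1 had 0 counts. Of 28 TNF receptors 14 were expressed, led by the TWEAK receptor Tnfrsf12a (467 TPM), Tnfrsf1a (118 TPM), Ltbr (67.3 TPM) and the TRAIL receptor Tnfrsf10b (43.6 TPM). Fas, the receptor of Fas ligand, was just under the limit for expression with 34 counts (1.54 TPM). Of 23 chemokine receptors 1 was expressed, Ccr10 with 67 counts (3.63 TPM), and Cxcr4, Cxcr2, Ccr2 and Ccr6 had 0 counts. Among 18 pattern receptors 7 were expressed, including Tlr3 (8.15 TPM), Tlr4 (5.65 TPM) and the Tlr4 partners Cd14 and Ly96 (9.61 TPM), while Tlr5, Tlr8 and Tlr9 had 0 counts.

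Developmental and other receptors are given beside expressed shares of 43.5% over all genes and 11020 of 20979 among protein-coding genes. Both chains of the canonical TGF-β receptor were expressed, Tgfbr2 at 14.9 TPM and Tgfbr1 at 11.3 TPM, and Bmpr1a stood at 37.0 TPM. Of 22 WNT, Notch and hedgehog receptors 14 were expressed, led by the hedgehog transducer Smo (63.7 TPM), Fzd7 (26.8 TPM) and Lrp5 (23.7 TPM), with Notch2 at 16.9 TPM and Notch3 at 0 counts. Of 26 integrin subunits 15 were expressed. Itgb1 stood at 683 TPM, Itgb5 at 83.2 TPM, the fibronectin receptor chain Itga5 at 43.3 TPM and Itgav at 30.9 TPM, while Itgb6 and Itga2, common in epithelia, had 0 counts. Of 48 nuclear receptors 27 were expressed, with Rxrb (80.9 TPM), the oxysterol receptor Nr1h2 (57.6 TPM) and Rarg (1414 counts) among the most abundant. The steroidogenic factor Nr5a1 had 745 counts (16.4 TPM), and Pgr, Esr2 and Ppara had 0.

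Of 276 ligand genes 86 (31.2%) were expressed, against 43.5% of all genes, and 52 were at 5 CPM or above. Among 36 chemokines 9 were expressed in the untreated cells. They were the monocyte attractant Ccl2 (388 TPM), the T cell attractant Cxcl10 (152 TPM), Ccl5 (59.8 TPM), the neutrophil attractant Cxcl1 (41.2 TPM), Ccl7, Ppbp, Cx3cl1, Ccl25 and Cxcl3. Cxcl9 had 8 counts (0.248 TPM) and Cxcl12, Ccl20, Cxcl2 and Cxcl14 had 0. Of 59 interleukins, interferons and related factors 12 were expressed. Mif had 25693 counts (3223.5 TPM, 60.5% of words shared), Csf1, the macrophage growth factor, stood at 51.5 TPM and Clcf1 at 29.4 TPM. Il6 had 12 counts, and Il1b, Il10, Csf2 and Ifng had 0. Of 18 TNF family ligands 4 were expressed, with Tnfsf9, a costimulatory ligand of T cells, at 49.3 TPM and Tnf at 0 counts.

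Growth factors of the EGF, HGF, IGF, PDGF and VEGF families and their relatives gave 26 expressed of 35. Vegfb (101 TPM), Vegfa (67.7 TPM), the neurotrophic Gdnf (39.2 TPM) and the EGFR ligand Areg (31.2 TPM) were among the most abundant. Igf1, Tgfa and Gas6 had 0 counts. Of 22 FGF genes 3 were expressed, Fgf7 (56.9 TPM), Fgf10 (1.63 TPM) and Fgf11 (1.38 TPM), and Fgf2 had 0 counts. Of 34 TGF-β family genes 12 were expressed, among them Tgfb1 (50.1 TPM) and Tgfb3 (21.2 TPM). WNT genes and their secreted modulators gave 3 of 30, Wnt10a (6.55 TPM), Wnt10b (3.30 TPM) and Wnt7b (1.70 TPM).

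To set ligands beside receptors, 61 textbook pairs were read in this library. The pairs were assembled after levels had been seen, so their counts are a description. Both partners were expressed in 29 pairs. In 16 the ligand was expressed and the receptor was at or under the floor. Among them were pairs whose receptor is known from leukocytes (Ccl2 with Ccr2, Cxcl10 with Cxcr3, Cxcl1 with Cxcr2, Kitl with Kit), from endothelium (Vegfa with Kdr) or from neurons (Gdnf with Ret). Csf1r, the receptor of Csf1, had 12 counts (0.350 CPM) and was low. In 8 pairs the receptor was expressed and the ligand was at or under the floor, among them Axl with Gas6 and Tnfrsf1a with Tnf. Pros1, the other Axl ligand, had 139 counts (3.18 TPM). The Il1rl1 ligand Il33 had 22 counts (0.713 TPM) and was low. Pairs with both partners expressed included Tnfsf9 (49.3 TPM) with Tnfrsf9 (23.2 TPM), Pdgfa (22.2 TPM) with Pdgfra, Tgfb1 with Tgfbr2, Jag1 (19.7 TPM) with Notch2, and Areg with Egfr. In each of these named pairs the ligand exceeded the receptor on the TPM scale.

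**Figure D4:**
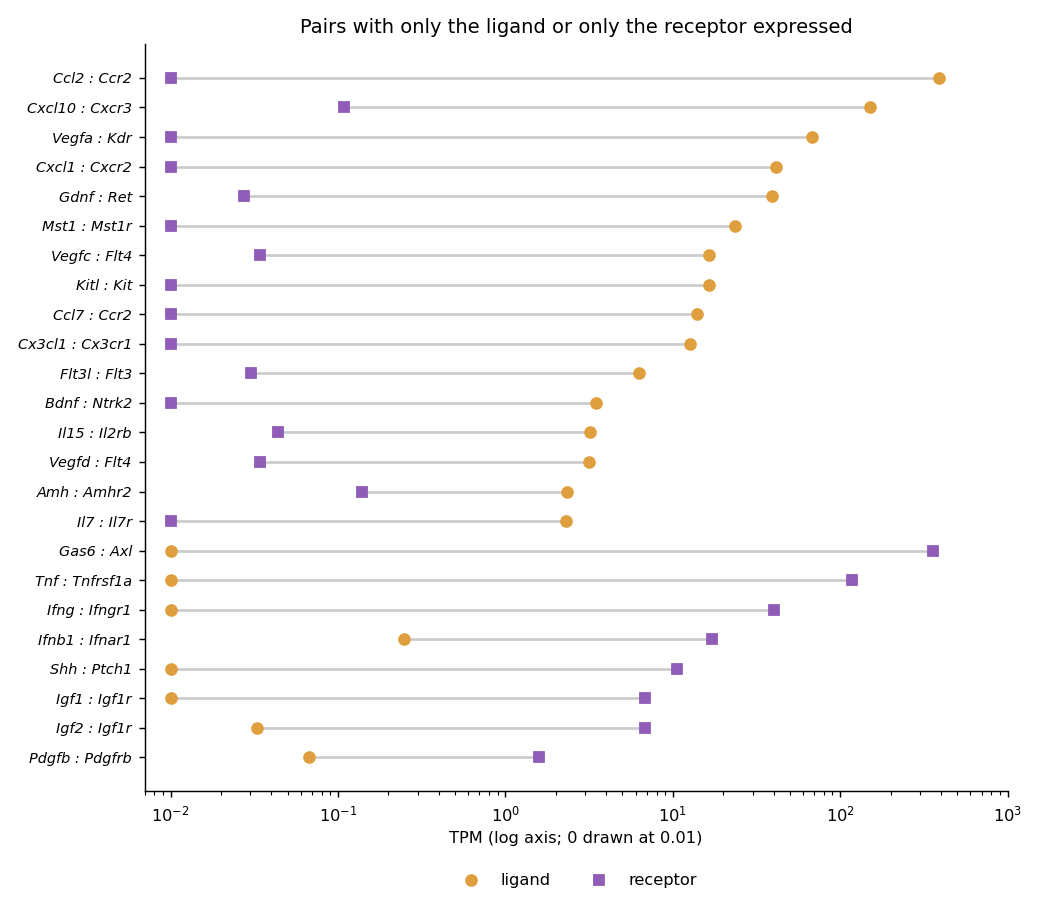
TPM on a log axis of ligand (circles) and receptor (squares) in the 16 pairs with the ligand expressed and the receptor at or under 3 counts, and the 8 pairs of the opposite kind, in the untreated MC38 library. Ccl2 at 388 TPM faces Ccr2 at 0, and Axl at 358 TPM faces Gas6 at 0.

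Most class I antigen presentation genes were expressed in the untreated cells, while the class II genes were split. Of 23 class I genes 20 were expressed, against 43.5% of all genes. B2m stood at 2051 TPM, H2-K1 at 1349.5 TPM and H2-D1 at 1095 TPM, with 22.8% and 26.9% of the words of the last pair shared with other genes. The peptide transporter subunits Tap1 (79.7 TPM) and Tap2 (36.5 TPM), the immunoproteasome subunits Psmb8 (61.2 TPM) and Psmb9 (15.6 TPM) and the class I activator Nlrc5 (12.2 TPM) were expressed without added cytokine. Of 16 class II genes 8 were expressed (5 when genes sharing 20% or more of their words are left out), and the α and β chains H2-Aa (4 counts) and H2-Ab1 (2 counts) and the activator Ciita (7 counts) were not among them. H2-Eb1 had 137 counts (6.59 TPM) and Cd74 had 195 (10.9 TPM). Of 25 checkpoint ligands 11 were expressed, in the order Lgals3 (564 TPM), Lgals9 (115 TPM), Pvr (30.6 TPM), Cd47 (23.7 TPM), Nectin2 (12.6 TPM) and Cd274, the PD-L1 gene (11.5 TPM, 447 counts). Pdcd1lg2, Vtcn1, Ido1, Nt5e and Entpd1 had 0 counts. The kinases Jak1 (5799 counts) and Jak2 (1138 counts) and the factors Irf1 (88.6 TPM) and Stat3 (23.5 TPM) were present, whereas Irf4 and Irf8 of hematopoietic cells had 0 counts. Of 14 nucleic acid sensors and their relays 13 were expressed, the exception being Nlrp3 with 2 counts.

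Metabolic genes were widely expressed, with 246 of 331 (74.3%) at 1 CPM or above and a median of 54.4 TPM. Over all genes the share was 43.5%. The glycolytic enzymes reached Pkm 3261 TPM, Ldha 2384 TPM, Pgk1 2254 TPM, Eno1 1517 TPM, Tpi1 1363 TPM and Aldoa 1047 TPM. Of these, Pkm, Pgk1 and Eno1 share 34.7%, 54.7% and 28.5% of their words with other genes. The lactate exporters Slc16a3 (370 TPM) and Slc16a1 (309 TPM) were at like levels. Of 12 facilitative glucose transporters 3 were expressed, Slc2a1 (110 TPM), Slc2a6 (24.7 TPM) and Slc2a8 (10.5 TPM), and Slc2a1 held 75.4% of the TPM summed over the 9 transporters of the paralog set. Slc2a3 had 4 counts and the fructose transporter Slc2a5 had 0.

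For several metabolic steps 1 paralog held nearly all transcripts. Aldoa held 99.4% of aldolase TPM, Eno1 97.9% of enolase, Ldha 97.8% of lactate dehydrogenase and Pygb 99.2% of glycogen phosphorylase. Pklr, Pgk2 and Gys2, the forms of other tissues such as liver or testis, had 0 counts. Other steps were shared. Hexokinase was split between Hk1 (55.1%) and Hk2 (44.5%), and phosphofructokinase between Pfkl (58.0%), Pfkm (23.6%) and Pfkp (18.3%). These splits depend on the length used. By the longest transcript Hk1 was at 106 TPM and Hk2 at 46.3 TPM. By that length Pfkp (63.2 TPM) was slightly above Pfkm (61.2 TPM), both below Pfkl (232 TPM). Among pyruvate dehydrogenase kinases Pdk3 (104 TPM) exceeded Pdk1 (50.2 TPM), and Pdk4 had 0 counts. The drug efflux gene Abcb1b (82.5 TPM) held 99.8% of the pair with Abcb1a (10 counts), and 17.4% and 28.2% of their words are shared.

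**Figure D5:**
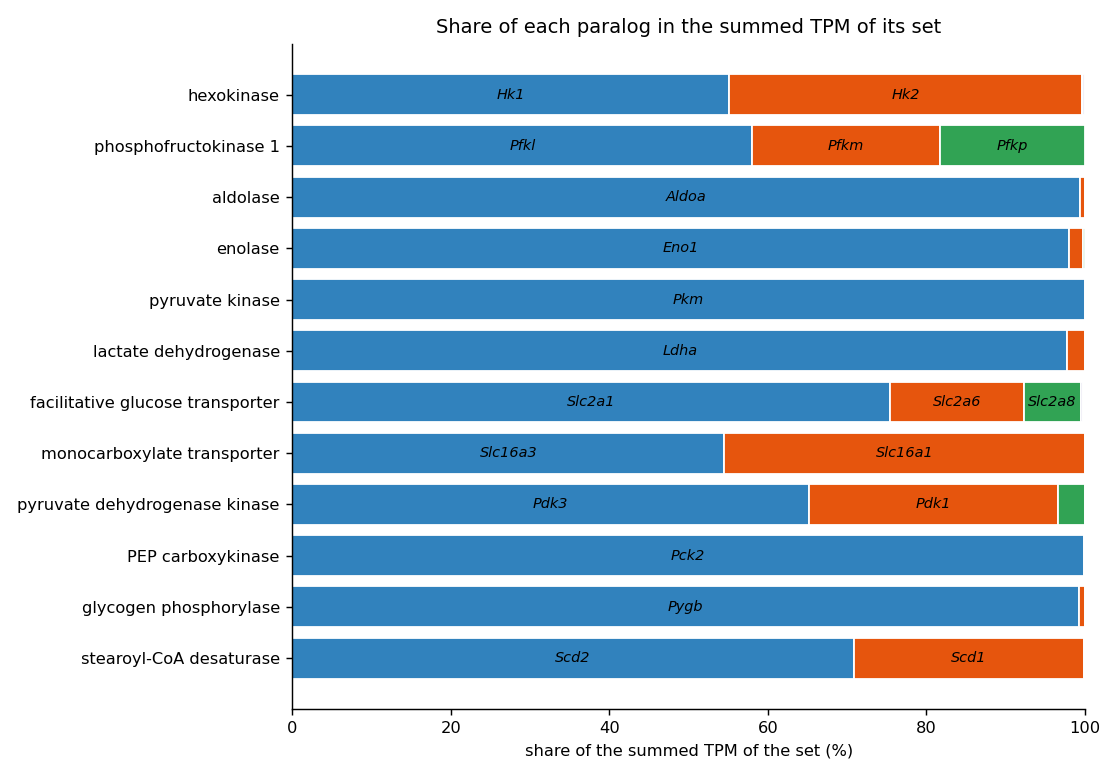
Share of each paralog in the summed TPM of its set for 12 metabolic steps of the untreated MC38 library, with paralogs over 6% named. Aldolase, enolase, pyruvate kinase, lactate dehydrogenase, PEP carboxykinase and glycogen phosphorylase are nearly whole bars of 1 gene, and hexokinase, phosphofructokinase and monocarboxylate transporters are split.

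The gluconeogenic enzymes Fbp1 and G6pc had 0 counts and Pck1 had 2, while the mitochondrial form Pck2 was at 36.8 TPM. Serine and folate enzymes were abundant, Phgdh at 837 TPM (56.3% of words shared), Shmt2 at 597 TPM, Psat1 at 326 TPM and Mthfd2 at 257 TPM. The polyamine enzyme Odc1 stood at 685 TPM, the asparagine synthetase Asns at 307 TPM and the transporter pair Slc7a5 and Slc3a2 at 503 and 324 TPM. Of the urea cycle, Asl (46.5 TPM) and Ass1 (33.1 TPM, 43.1% of words shared) were expressed and Cps1 was at 2.14 TPM, while Otc had 0 counts and Arg1 13. Cbs, the entry of transsulfuration, had 0 counts, and Cth had 36 counts (1.21 TPM). Of 29 genes of fatty acid and cholesterol synthesis 28 were expressed, led by Scd2 (765 TPM), Cyp51 (436 TPM) and Scd1 (314 TPM). The ketone body enzyme Bdh1 had 0 counts, while Oxct1, which uses ketone bodies, stood at 96.0 TPM. Carbonic anhydrases were sparse, with 4 of 16 expressed, led by Car13 (64.9 TPM) and Car9 (17.1 TPM).

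Growth control genes were almost all present. Over all genes the expressed share was 43.5%, and among protein-coding genes 11020 of 20979 were expressed. All 25 proliferation genes were expressed, between 38.9 TPM for Tyms and 950 TPM for Pcna, with Mki67 at 186 TPM. Of 37 colon cancer genes 34 were expressed. Ccnd1 held 75.5% of the D cyclin TPM, and Myc (113 TPM) was the expressed MYC gene, with Mycn and Mycl at 0 counts. Trp53 stood at 166 TPM, Cdkn1a, its target, at 82.2 TPM, Smad4 at 71.9 TPM, Cdkn2a at 18.8 TPM and Apc at 11.2 TPM. Transcript levels do not show whether these genes carry mutations. Mtap, which lies beside Cdkn2a, stood at 348 TPM. Of 16 genes listed for the study, 12 were expressed, and Nanog, Pou5f1, Prom1 and Vtcn1 had 0 counts. Egln1 and Jak1, which are among the 12, are not named by the study. In MC38 cells the study reports mRNA of Prom1 (CD133) and Pou5f1 (OCT4) by real-time PCR. It also reports CD133-positive cells by flow cytometry and Nanog protein by western blot, which are measures unlike these counts.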

How the data were processed

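RNA was extracted from untreated MC38 cells under normoxia, poly-A selected, made into a strand-specific library with dUTP and sequenced as pairs of reads on a DNBSEQ instrument. The authors aligned the reads with HISAT2, and the deposited values are raw read counts per gene without normalization. The submitters' processing notes name featureCounts and the build mm10. Its settings on strand, mates and shared reads are not given in the sources used here, so antisense, overlapping and near-identical genes are uncertain.

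From these counts CPM was computed over the total of 34302971, and TPM over the merged exons of the GENCODE M21 annotation for 24886 of 27179 genes. Symbols matched 25275 IDs in a RefSeq table for GRCm38.p6, which also gave the coordinates and promoters. The counts on IDs without a symbol were 0.282% of the total. The share of each gene's 31-base words that occur in other annotated genes was computed, and shares of 20% or more are stated beside results that turn on them. The share was also 20% or more for Eef1a1, Rplp0, Ptma, COX1, Odc1, Ccnd1, Pcna, Pdgfa, Lyz2, Ly6a, Hoxa7, Hoxb2, Car1, Csf3r, Ifng, Nefl and Pklr. Intervals came from scipy 1.17.1 in Python 3.11.15. A check on simulated data drew Poisson counts, so it tested the computation and not whether the real counts follow that model. There was 1 library, so no test between conditions was run.

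Named genes were the 20 most counted and the 20 highest by TPM, up to 8 of the highest and 8 at or under 3 counts per list, the genes the study names, and paralogs or partners of these. Further members are named where a result turned on them. The members and lists were chosen with earlier results of these data known. The alternatives were thresholds of 0.5 and 5 CPM and of 1 TPM, genes with a symbol alone, CPM without the 10 most counted genes, lists without genes sharing 20% of their words, the longest transcript as the length, and, chosen after seeing the data, a floor of 6 counts. Some genes are not reported here, and pairs or sets that need them were left out.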

Additional observations from a re-analysis of the deposited data

How the results depend on the processing

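Of the counts for all genes and for the 8 groups of lists, 2 moved by over 1.5 times under the alternatives tried: at 5 CPM in place of 1 CPM the other-lineage genes expressed were 40 and the ligand genes 52, and the other 36 values stayed within that range. Among single lists and single levels 56 values moved and 242 did not. Of those that moved, 23 were lists at 5 CPM, 9 were lists at 0.5 CPM, 4 were lists at 1 TPM, 7 were lists without genes sharing 20% or more of their words, and 13 were levels by the longest transcript. Without genes that share words, 1 keratin and 5 class II genes were expressed. By the longest transcript Vim was at 1912 TPM, Ccl2 at 299 TPM, Cd274 at 8.58 TPM and Krt8 at 3.20 TPM. With a floor of 6 counts, chosen after seeing the data, 13335 genes were at or under it. No paired analysis was possible because the untreated normoxic library was read alone and the result comes from no test, and with 1 library no replicate could be left out. Differences between genes near 3 counts were not detectable at this depth.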

Other observations

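A few genes stood far from their partners, and they were picked after their values had been seen. Succinate dehydrogenase links the TCA cycle to the respiratory chain and needs its 4 subunits together. Sdha stood at 241 TPM, Sdhb at 137 TPM and Sdhc at 108 TPM, whereas Sdhd (chr9:50596340-50603849, GRCm38.p6) had 4 counts (0.304 TPM). None of the Sdhd words occur in another annotated gene, and the neighboring Timm8b, which begins at base 50603901, had 1381 counts. COX2, COX3 and ATP6 of the mitochondrial genome had 3193, 2087 and 1876 counts beside 337315 for COX1, and nearly all of their words, 99.5% to 100%, occur in other annotated genes, against 63.9% for COX1. The matricellular gene Ccn2 had 0 counts beside 1986 for its relative Ccn1, and 19.7% of its words are shared. The part of the annotation, of read assignment and of the cells in these values was not tested.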
